A study of Mus musculus with 14 samples.

Results

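Transcripts of 40 lysosomal genes were followed in primary bone marrow-derived macrophages (pBMDMs) given supernatants of living or ferroptotic fibroblasts. The genes were taken by symbol from the deposited count table, which holds 55414 genes. They comprised 5 proteins of the lysosomal membrane, 11 cathepsins and related proteases, 12 hydrolases of lipids, glycans and thioesters, 3 activators or granulin, 3 transcription factors of the MiT/TFE family (Tfeb, Tfe3 and Mitf) and 6 subunits of the vacuolar proton pump (V-ATPase). All 40 passed the filter on low counts, as did 12851 of the 55414 genes.

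The macrophages were grown from bone marrow of wildtype C57BL/6N mice and kept for 24 h with one of 5 media before 3′ end RNA sequencing. The supernatants came from Pfa1 cells, a line of mouse embryonic fibroblasts in which 4-hydroxytamoxifen (4OHT) deletes Gpx4, the enzyme that removes lipid peroxides, so that the cells die by ferroptosis. The groups were supernatant of untreated fibroblasts (ctrl, 3 samples), of fibroblasts given the ferroptosis inhibitor ferrostatin-1 (Fer1, 3 samples), of fibroblasts given both agents, which stay alive (4OHT+Fer1, 3 samples), of fibroblasts given 4OHT alone, which are the ferroptotic ones (4OHT, 3 samples), and fresh medium that had seen no fibroblasts (medium, 2 samples, numbered replicates 1 and 2). The added 4OHT and Fer1 were carried over with the supernatant, and no group received 4OHT or Fer1 in fresh medium, so that agent and fibroblast product cannot be told apart. All supernatants came from a single fibroblast line. The paper does not state the base of the medium used for the medium group. It names RPMI for primary macrophages and DMEM for Pfa1 cells. Whether the base differed between the supernatants and medium is not known.

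Lysosomes digest what a macrophage takes up. Hydrolases are made as precursors, sorted to the lysosome and work at the acid pH that the V-ATPase maintains, while heavily glycosylated membrane proteins such as LAMP1 and LAMP2 line the compartment. Many of these genes carry a palindromic E-box, the CLEAR motif, near their start and are switched on together by TFEB, TFE3 and MITF, which are themselves controlled mainly by phosphorylation and movement into the nucleus, a step that transcript counts do not show. Macrophages that clear dead cells rely on this compartment.

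The promoters are shown because the motif is the feature through which these genes are known to be co-regulated. The core TCACGTGA and the shorter TCACGTG, of which every TCACGTGA holds a copy, were searched on both strands from 250 bases before to 50 bases after each transcription start in RefSeq promoters of mouse build GRCm38.p6. Of the 40 genes, 35 had an entry, with 43 promoters; Ctsb, Ctsh, Asah1, Atp6v0d2 and Atp6v1h had none. TCACGTGA was present in 6 of the 43 promoters (13.95%), those of Ctsa, Ctsd, Mcoln1, Gla, Atp6v0d1 and Atp6v1a, and in 320 of 32851 promoters overall (0.974%). TCACGTG was present in 11 of 43 (25.6%), with Lamp1, Glb1, Naglu, Gaa and Lgmn in addition, and in 1237 of 32851 overall (3.765%). The stretches below run along the strand of the gene, with up to 30 bases on either side, and the capitals mark the motif as read on that strand (CACGTGA is TCACGTG on the other strand).
Lamp1, chr8:13159069-13159181, plus strand: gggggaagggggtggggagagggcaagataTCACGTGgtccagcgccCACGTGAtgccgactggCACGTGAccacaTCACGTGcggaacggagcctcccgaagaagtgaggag
Mcoln1, chr8:3500417-3500510, plus strand: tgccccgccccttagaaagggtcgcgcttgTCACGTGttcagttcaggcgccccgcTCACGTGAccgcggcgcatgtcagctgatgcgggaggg
Ctsa, chr2:164833730-164833814, plus strand: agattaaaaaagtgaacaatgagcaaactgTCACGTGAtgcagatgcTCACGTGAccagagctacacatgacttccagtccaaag
Ctsd, chr7:142387889-142387956, minus strand: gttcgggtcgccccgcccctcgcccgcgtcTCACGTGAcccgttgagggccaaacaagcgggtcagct
Gla, chrX:134601163-134601255, minus strand: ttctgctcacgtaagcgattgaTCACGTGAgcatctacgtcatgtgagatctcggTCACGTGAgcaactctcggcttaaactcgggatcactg
Atp6v0d1, chr8:105566031-105566098, minus strand: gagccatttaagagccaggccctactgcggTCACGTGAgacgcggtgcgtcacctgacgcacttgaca
Atp6v1a, chr16:44139354-44139421, minus strand: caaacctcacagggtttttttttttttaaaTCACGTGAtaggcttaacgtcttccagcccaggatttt
Lamp1 held 4 copies of the shorter motif, between 62 and 16 bases before its start. Ctsa and Gla each held 2 copies of the longer one, and the single copy of Atp6v0d1 lay 4 bases before the start.

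All samples bore the macrophage markers (8 of 8 detected in every group, summed level 19151 to 44148 CPM, the counts of a gene scaled to a common library size). Fibroblast markers summed to 19.1 to 135 CPM over 12 genes, and dendritic cell markers to at most 3.17 CPM over 6. Col1a1 (5.07 to 41.5 CPM) and Col1a2 (7.75 to 67.3 CPM) were the highest fibroblast markers in every sample, while Thy1 and Lum were at or near 0. Neutrophil markers summed to 2.87 to 25.5 CPM in the supernatant groups and 35.1 to 48.7 CPM in medium over 8 genes, with Ly6g and Elane at 0 in every sample. Proliferation markers moved with the groups, at 1036 to 1248 CPM in ctrl, 230.02 to 649 CPM in 4OHT and 80.4 to 115 CPM in medium, and 4 of 8 were lower in 4OHT than in ctrl while 7 of 8 were higher in ctrl than in medium by the edgeR test used throughout. By the same test, 1 of 6 osteoclast markers was higher in 4OHT than in ctrl. None of the macrophage, fibroblast, neutrophil or dendritic cell markers was called there. Between ctrl and medium, 1 of 8 macrophage markers was higher in ctrl and 3 lower, and 3 of 12 fibroblast, 2 of 6 osteoclast and 1 of 8 neutrophil markers were lower. The part of these markers in the results below was not tested. Libraries held 7823051 to 11052352 counts, and mitochondrial transcripts took 4.53% to 10.6%, highest in replicate 3 of each supernatant. In bulk RNA, fewer cells of a type and less RNA per cell cannot be told apart.

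The 40 genes took 2.67% to 3.63% of all counts in each library. Every level given here is in CPM after scaling by trimmed mean of M values (TMM). The protocol counts fragments near the 3′ end of a transcript, so the values were not divided by gene length and levels of different genes were not ranked. Ctsb, Ctsd and Ctss, which encode the cathepsins typical of macrophage lysosomes, were at 3788 to 7303, 4176 to 8434 and 3696 to 5736 CPM over the 14 samples. Psap, the precursor of the saposins that present lipids to hydrolases, was at 1579 to 4992 CPM. Ctsk, the cathepsin of osteoclasts, was at 0.198 to 2.54 CPM, close to the 0.272 to 0.381 CPM that 3 counts were worth, and differences in it were not detectable at this depth.

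**Figure D1:**
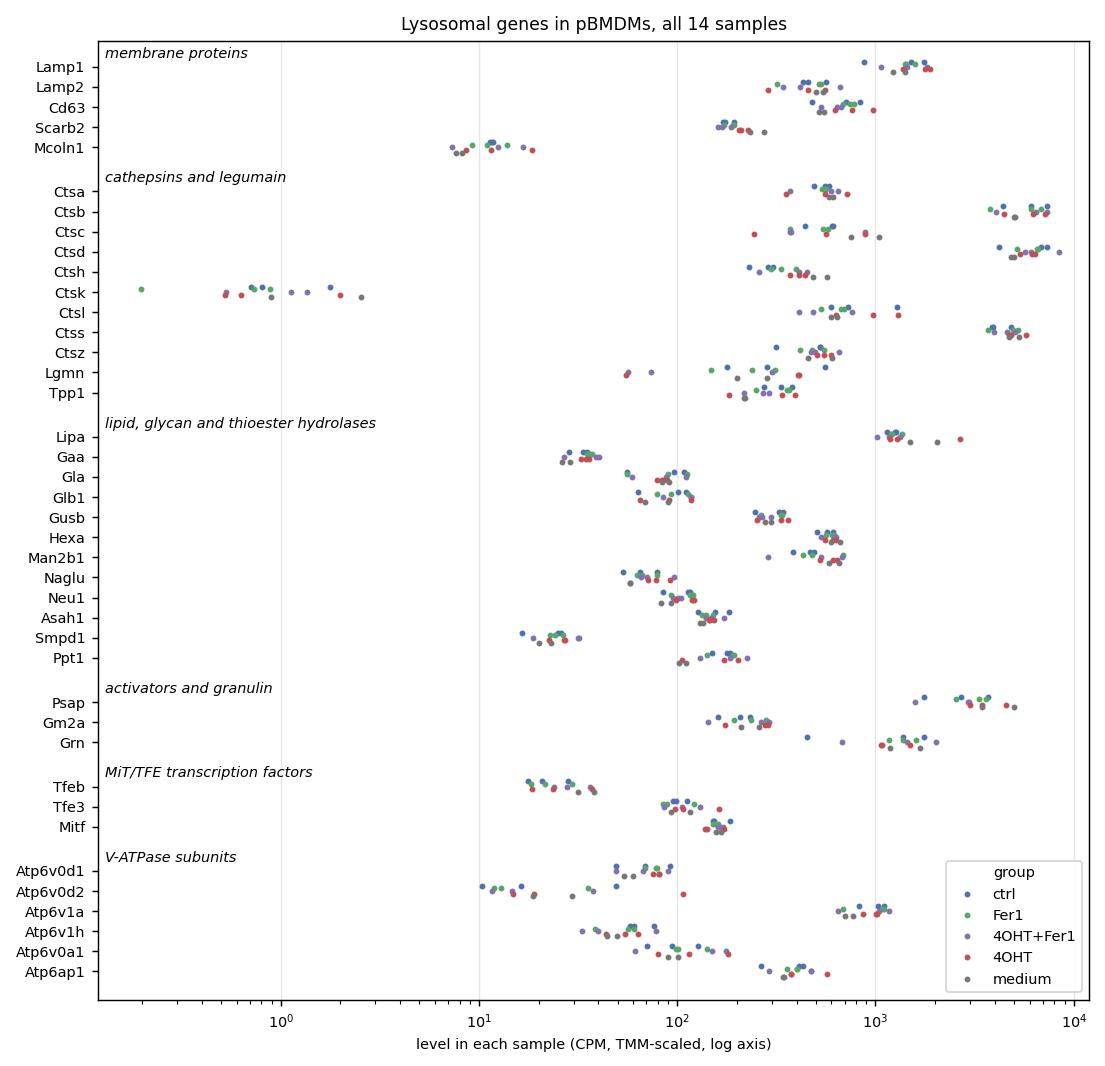
Level of each of the 40 lysosomal genes in each of the 14 samples (CPM, TMM-scaled, log axis), one row per gene and one dot per sample, coloured by the medium given to the macrophages and ordered by role. The dots of the 5 groups lie among each other for most genes, and Lgmn and Atp6v0d2 spread over the widest range apart from Ctsk.

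Ferroptotic against living supernatant was the comparison the study turned on. None of the 40 genes was called between 4OHT and ctrl: 0 of 40 passed an adjusted p of 0.05 in the edgeR quasi-likelihood test with Benjamini-Hochberg adjustment over all genes, where 192 of 12851 genes (1.49%) passed. At an unadjusted p of 0.05 there were 2 (Atp6v0d2 and Ctsh), against 10.8% of all genes, and DESeq2 also called 0, with 3 at an unadjusted p of 0.05. The smallest adjusted p among the 40 was 0.305.

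The fold changes were small, with a median log2 value of 0.11 over the 40 genes and 0.0059 over all genes. They ran from -0.59 for Lgmn to 0.67 for Atp6v0d2, and 30 were above 0, as were 6532 of the 12851 genes. The median over the 40 was 0.05 without ctrl replicate 3, 0.05 without replicate 3, 0.06 with the GC offset described below, 0.20 in a fit of only these groups and 0.25 without replicate 1. For 35 of the 40, the unadjusted 95% interval lay within 2-fold in either direction, and for 16 within 1.5-fold. Over all 12851 genes these were 8170 and 3687, with a median SE of 0.25 beside 0.19 for the members. The genes whose intervals reached beyond 2-fold were Ctsh, Ctsk, Lgmn, Psap and Atp6v0d2, and a 2-fold difference lay within the interval of each of these. Comparing samples of the same replicate number, 12 genes were higher in 4OHT in all 3 (30% of the members, against 15.4% of all genes): Lamp1, Cd63, Scarb2, Ctsh, Ctsz, Gusb, Man2b1, Neu1, Smpd1, Psap, Gm2a and Atp6v0d2. None of the 40 was lower in all 3, against 14.4% of all genes.

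**Figure D2:**
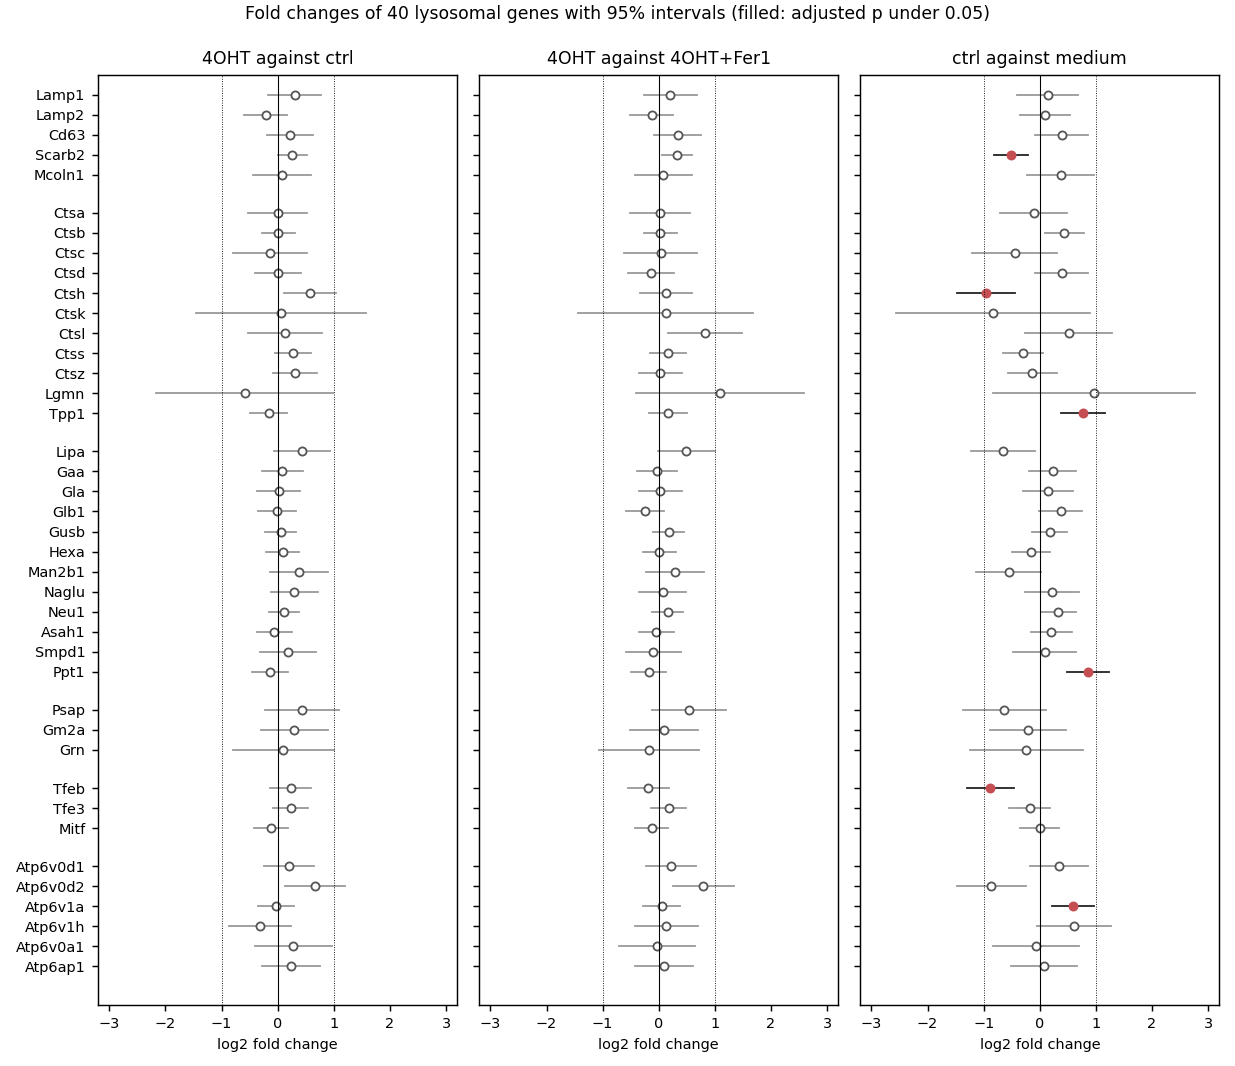
Log2 fold change of each of the 40 genes (dots) with its unadjusted 95% interval (lines) in 3 comparisons, grouped by role as in the plot of levels; dotted lines mark 2-fold and filled dots an adjusted p under 0.05 in the edgeR test. No dot is filled in the comparisons of 4OHT with ctrl and with 4OHT+Fer1, and 6 are filled for ctrl against medium, Scarb2, Ctsh and Tfeb to the left of 0 and Tpp1, Ppt1 and Atp6v1a to the right.

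Among the membrane proteins, Scarb2, which encodes LIMP-2, the receptor that carries glucocerebrosidase to the lysosome, was the steadiest. Scarb2 stood at 193, 171 and 173 CPM in ctrl (replicates 1 to 3), 194, 172 and 192 CPM in Fer1, 168, 160 and 187 CPM in 4OHT+Fer1, 228, 209.7 and 206 CPM in 4OHT, and 275 and 233 CPM in medium. Every 4OHT sample was above every sample of the other supernatants and below both medium samples. The differences did not pass the test: the log2 fold change was 0.26 ± 0.12 (SE, n = 3 against 3, adjusted p = 0.462, edgeR) against ctrl and 0.32 ± 0.12 (adjusted p = 0.298, edgeR) against 4OHT+Fer1. Asked whether 4OHT acted otherwise with Fer1 than without, the interaction for Scarb2 was 0.38 ± 0.17 (SE, unadjusted p = 0.0478 and adjusted p = 0.804 in the edgeR test across all genes). Lamp1 and Lamp2, the abundant glycoproteins of the lysosomal membrane, had log2 fold changes of 0.30 and -0.21 against ctrl. Cd63, a tetraspanin of late endosomes, was at 0.23, and Mcoln1, the TRPML1 calcium channel, at 0.07. The reads of Cd63 may be shared with its processed copy Cd63-ps, since its estimated counts were not whole in any of the 14 samples, and its values are uncertain to that extent.

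Of the proteases, Ctsh, an aminopeptidase cathepsin, had the largest positive difference between 4OHT and ctrl. Ctsh was at 305, 286 and 229.6 CPM in ctrl, 332, 296 and 399 CPM in Fer1, 258, 412 and 454 CPM in 4OHT+Fer1, 441, 409 and 370.4 CPM in 4OHT, and 569 and 482 CPM in medium. The 4OHT samples were above the ctrl samples without overlap, but they overlapped those of the Fer1 and 4OHT+Fer1 groups. The log2 fold change of Ctsh was 0.57 ± 0.21 (SE, n = 3 against 3, adjusted p = 0.309, edgeR) against ctrl and 0.13 ± 0.21 against 4OHT+Fer1.

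Ctsl, a major endopeptidase cathepsin, showed another order. Its values were 723, 597 and 1278 CPM in ctrl, 765, 412 and 484 CPM in 4OHT+Fer1, and 1296, 974 and 634 CPM in 4OHT, so that the high ctrl sample, replicate 3, came close to the highest 4OHT sample. The log2 fold change was 0.13 ± 0.31 against ctrl and 0.82 ± 0.30 (SE, n = 3 against 3, adjusted p = 0.287, edgeR) against 4OHT+Fer1. Exons of Ctsl overlap those of Gm49230 on the same strand in GENCODE M21, those of Ctsd overlap Gm49369 and those of Glb1 overlap Tmppe, so reads of these pairs may have been divided. Between 4OHT and ctrl, the log2 fold changes of the remaining cathepsins were between -0.13 and 0.31: Ctsa 0.00, Ctsb 0.01, Ctsc -0.13, Ctsd 0.01, Ctss 0.28 and Ctsz 0.31. Tpp1, a tripeptidyl peptidase, was at -0.16.

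For all 12 hydrolases of lipids, glycans and thioesters, the interval for 4OHT against ctrl lay within 2-fold. Lipa, the acid lipase that frees cholesterol from its esters, had the highest log2 value, 0.43 ± 0.23 (SE, n = 3 against 3, adjusted p = 0.566, edgeR). Its difference came mainly from 1 library, with 2668 CPM in replicate 3 of 4OHT beside 1282 and 1189 CPM in the other 4OHT samples and 1137 to 1264 CPM in ctrl. Man2b1, a mannosidase, followed at 0.38, Naglu, which degrades heparan sulfate, at 0.30, and Smpd1, the acid sphingomyelinase, at 0.18. The other 8 (Gaa, Gla, Glb1, Gusb, Hexa, Neu1, Asah1 and Ppt1) lay between -0.14 and 0.12.

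The helper proteins Psap, Gm2a (the GM2 activator) and Grn (progranulin) had log2 values of 0.44, 0.30 and 0.10. Of the V-ATPase, Atp6v0d2, an inducible subunit known from osteoclasts and macrophages, had the largest value of the 40. Atp6v0d2 was at 16.3, 10.4 and 49.03 CPM in ctrl, 11.9, 12.9 and 35.6 CPM in Fer1, 14.6, 11.7 and 37.8 CPM in 4OHT+Fer1, 18.97, 14.9 and 107 CPM in 4OHT, and 29.5 and 18.8 CPM in medium. Replicate 3 was the high one in all 4 supernatants, and within each replicate number the 4OHT sample was the highest of the supernatants. The log2 fold change, fitted with the replicate number as a block, was 0.67 ± 0.25 (SE, n = 3 against 3, adjusted p = 0.305, edgeR) against ctrl and 0.80 ± 0.25 (adjusted p = 0.188, edgeR) against 4OHT+Fer1. Of the 6 osteoclast markers, the fusion receptor gene Dcstamp and Mmp9 were, like Atp6v0d2, highest in replicate 3 of each supernatant. Acp5 was instead highest in replicate 2 of each, at 4.53, 4.71 and 3.29 CPM in 4OHT. Dcstamp was at 0.304, 0.502 and 2.87 CPM in ctrl and 1.26, 2.26 and 11.9 CPM in 4OHT, and the summed level of the 6 markers was 3.24 to 6.51 CPM in ctrl, 6.32 to 18.7 CPM in 4OHT and 12.9 CPM in both medium samples, with Calcr at 0 in every sample and Oscar at 0 in all but 1. Of the 6 markers, 1 was called higher in 4OHT than in ctrl by the edgeR test. The part of the osteoclast markers in the result was not tested. The other pump subunits lay between -0.31 for Atp6v1h and 0.27 for Atp6v0a1, with Atp6v1a at -0.03, Atp6v0d1 at 0.21 and Atp6ap1 at 0.24.

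Against 4OHT+Fer1, the supernatant of fibroblasts that lost Gpx4 but lived, again 0 of 40 genes passed (174 of 12851 genes did, 1.35%), and DESeq2 called 0. At an unadjusted p of 0.05 there were 3 in edgeR (Atp6v0d2, Ctsl and Scarb2), against 11.8% of all genes, and 4 in DESeq2. The median log2 fold change was 0.08, and 34 of the 40 intervals lay within 2-fold (8154 of 12851 over all genes). In all 3 replicates, 7 genes were higher in 4OHT (17.5%, against 15.2% of all genes): Scarb2, Ctsl, Ctss, Lipa, Neu1, Psap and Atp6v0d2. Glb1 and Ppt1 were lower in all 3 (5%, against 14.2% of all genes). This comparison and the one with ctrl share the 4OHT samples. Ctsl passed without replicate 3 and without ctrl replicate 3, with its smallest adjusted p over the alternatives at 0.0396 (edgeR).

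The comparisons among supernatants of living fibroblasts called no member. Between 4OHT+Fer1 and Fer1, 0 of 40 genes passed (0.0233% of all genes did), with 0 at an unadjusted p of 0.05 (2.07% of all genes). Of the intervals, 37 lay within 2-fold (9082 of 12851 over all genes). Between Fer1 and ctrl, 0 of 40 passed, as did 0% of all genes, with 0 at an unadjusted p of 0.05 (1.14% of all genes). There, 36 intervals lay within 2-fold (9014 of 12851 over all genes). DESeq2 called 0 members in both. The interaction called 0 members in either tool, against 0.0311% of all genes in edgeR, and 1 at an unadjusted p of 0.05 (Scarb2, in edgeR), against 6.2% of all genes.

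Supernatant of untreated living fibroblasts (ctrl) was also compared with fresh medium. Of the 40, 6 passed the edgeR test (15%, against 10.9% of all genes), a share not far above that of all genes, with 3 in each direction: Ppt1, Tpp1 and Atp6v1a were higher in ctrl than in medium (7.5%, against 5.28% of all genes), and Ctsh, Tfeb and Scarb2 were lower (7.5%, against 5.58%). None of the 6 changed by more than 2-fold, while 7.79% of all genes passed with such a change. The median over the 40 was 0.09 and 22 values were above 0, so the genes lay on both sides of 0. The 6 came from 5 of the 6 roles, and none was an activator.

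In GRCm38 (GENCODE M21), Ppt1 lies at chr4:122836242-122859175, Tpp1 at chr7:105744811-105752235, Atp6v1a at chr16:44085402-44139705, Ctsh at chr9:90054152-90076089, Tfeb at chr17:47737030-47792419 and Scarb2 at chr5:92441314-92506833. Ppt1, a thioesterase that removes palmitate from proteins, was at 186, 179 and 150.1 CPM in ctrl, 102 and 111 CPM in medium, and 202, 172 and 106 CPM in 4OHT. It was at 193, 192 and 142 CPM in Fer1 and 225, 185 and 130 CPM in 4OHT+Fer1. All ctrl samples were above both medium samples, with a log2 fold change of 0.86 ± 0.17 (SE, n = 3 against 2, adjusted p = 0.00679, edgeR). Tpp1 was at 334, 379 and 273 CPM in ctrl, 337, 392 and 182 CPM in 4OHT, and 216 and 220.05 CPM in medium. In Fer1 it was at 365, 358 and 249 CPM. In 4OHT+Fer1 it was at 291, 272 and 218 CPM, the last between the medium samples. Its log2 fold change, ctrl against medium, was 0.77 ± 0.18 (adjusted p = 0.0166, edgeR). PPT1 and TPP1 are the enzymes missing in the infantile and late infantile forms of neuronal ceroid lipofuscinosis. Atp6v1a, the catalytic subunit of the V-ATPase, was at 1108, 1036 and 830.5 CPM in ctrl, 1001, 1014 and 866 CPM in 4OHT, and 704 and 766 CPM in medium. For Atp6v1a the log2 fold change was 0.59 ± 0.17 (SE, adjusted p = 0.0463, edgeR), and again no ctrl sample reached down to the medium samples. Atp6v1a was at 1106, 1098 and 683 CPM in Fer1 and 1175, 1041 and 649 CPM in 4OHT+Fer1. Replicate 3 of these groups lay below both medium samples, so they showed no such gap to medium.

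Ctsh and Scarb2, whose values stand above, went the other way. Ctsh was lower in ctrl than in medium by -0.96 ± 0.24 on the log2 scale (SE, n = 3 against 2, adjusted p = 0.0218, edgeR), with no overlap. Scarb2 was lower by -0.51 ± 0.14 (adjusted p = 0.0337, edgeR), also with no overlap. In both genes the 4OHT samples lay between the ctrl and medium samples, but 4OHT did not pass against either.

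Of the transcription factors Tfeb, Tfe3 and Mitf, only Tfeb passed in any comparison. Tfec, a further member of the family, was read among the other lysosomal genes and was not called in any comparison. Tfeb was at 20.8, 17.6 and 28.2 CPM in ctrl, 21.5, 18.2 and 29.5 CPM in Fer1, 23.9, 27.9 and 36.2 CPM in 4OHT+Fer1, 18.5, 23.6 and 37.1 CPM in 4OHT, and 38.2 and 31.6 CPM in medium. Each ctrl sample was below both medium samples, with a log2 fold change of -0.88 ± 0.19 (SE, n = 3 against 2, adjusted p = 0.0107, edgeR). Between 4OHT and ctrl the log2 fold change of Tfeb was 0.23 ± 0.17 (adjusted p = 0.729, edgeR). Tfe3 was at 95.4, 98.7 and 112 CPM in ctrl, 88.9, 84.8 and 122 CPM in Fer1, 85.4, 106 and 131 CPM in 4OHT+Fer1, 107, 97.1 and 162 CPM in 4OHT, and 93.1 and 116 CPM in medium. The groups overlapped, and the log2 fold change was 0.23 ± 0.15 for 4OHT against ctrl and -0.18 ± 0.17 for ctrl against medium. Mitf was the steadiest of these members, at 185, 152 and 153 CPM in ctrl, 156, 151 and 161 CPM in Fer1, 169.7, 164 and 161 CPM in 4OHT+Fer1, 137, 142 and 173 CPM in 4OHT, and 157 and 166 CPM in medium. Its log2 fold change was -0.12 ± 0.14 for 4OHT against ctrl and 0.00 ± 0.16 for ctrl against medium, with a 95% interval of -0.34 to 0.34 in the latter. That Tfeb differed more than Tfe3 and Mitf between ctrl and medium was not tested.

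**Figure D3:**
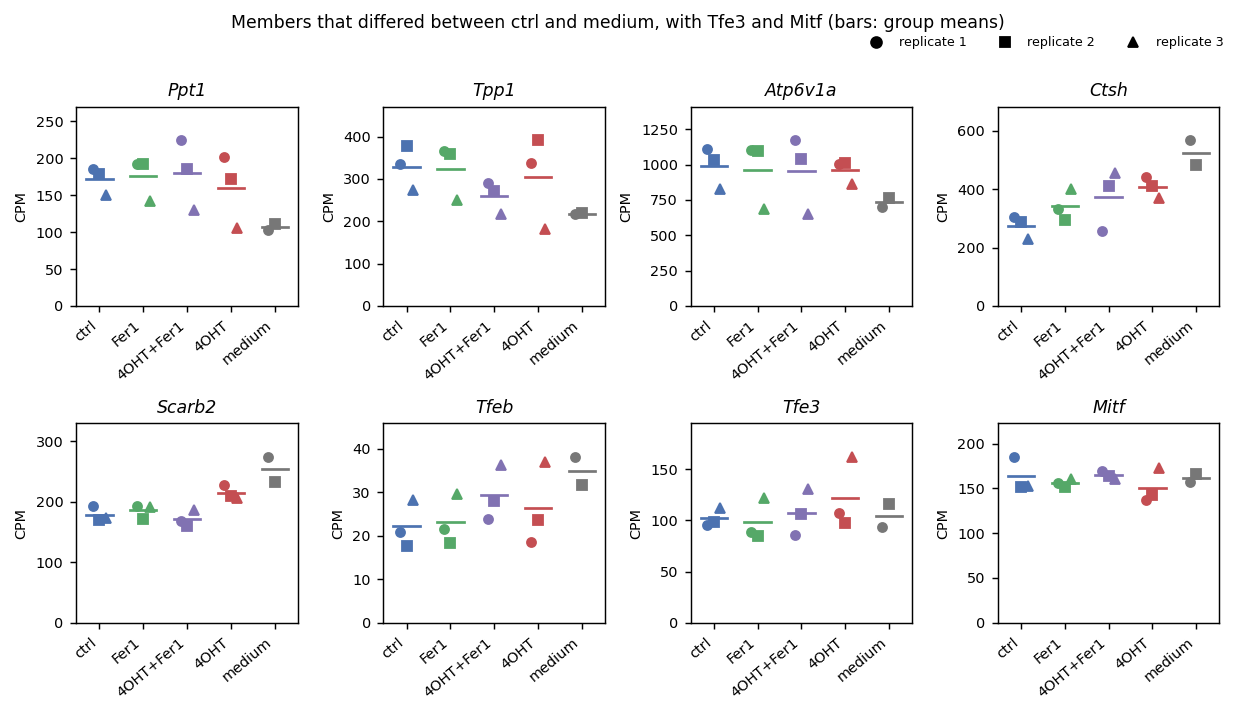
Level in CPM (axis from 0) of the 6 genes that differed between ctrl and medium and of Tfe3 and Mitf in every sample; shapes give the replicate number and bars the group means. The medium samples lie below every ctrl sample for Ppt1, Tpp1 and Atp6v1a and above every ctrl sample for Ctsh, Scarb2 and Tfeb, whereas for Tfe3 and Mitf the medium and ctrl samples overlap.

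These calls rested on the 2 medium samples and on the replicate block. Over all genes, the calls fell from 1396 to 523 of 12851 without the block. The call of Scarb2 was lost in the most alternatives. Among them were the fit of only the groups compared, no filter on low counts and leaving out replicate 3. Without the replicate block only Ctsh passed, and without replicate 1 or without replicate 2, either of which leaves a single medium sample assumed to vary like the other groups, none did; without ctrl replicate 3, Scarb2 and Atp6v1a were lost.

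Between 4OHT and medium, Ppt1 was the only member called (2.5%, against 4.26% of all genes), with a log2 fold change of 0.72 ± 0.17 (SE, n = 3 against 2, adjusted p = 0.0336, edgeR), although its replicate 3 in 4OHT lay among the medium samples. With DESeq2, 6 members were called (Ppt1, Tpp1, Atp6v1a, Ctsb, Neu1 and Tfeb), where 856 of 12851 genes were. A fit of only the groups compared called 7 members and 1470 of 12149 genes. Without replicate 3 there were 3 (Ppt1, Tpp1 and Ctsl), where 712 of 12516 genes were called. The call of Ppt1 was lost without the replicate block, without replicate 1 and without replicate 2. At an unadjusted p of 0.05 there were 9 members (22.5%, against 15.8% of all genes), among them Tfeb at -0.65 ± 0.19 (adjusted p = 0.0848, edgeR), Ctsb, Neu1, Naglu and 2 pump subunits.

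The fold changes were also set out by promoter motif. For 4OHT against ctrl, the median log2 fold change was 0.02 over the 11 genes with TCACGTG and 0.20 over the 24 with a promoter entry and no match. For ctrl against medium it was 0.34 over the 11 and -0.15 over the 24. Atp6v1a was the only one of the 11 called in the latter comparison, beside 4 of the 24 (Ppt1, Tpp1, Scarb2 and Tfeb). For Atp6v1a, the copy of TCACGTGA printed above lay 132 bases before its start. These medians were not tested.

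The other genes of the pathway were read from lists of 87 further lysosomal genes (pump subunits, hydrolases, membrane and luminal proteins, cathepsin inhibitors, mannose 6-phosphate sorting and nutrient sensing at the lysosome), of which 86 were tested and Rragb was not. Between 4OHT and ctrl, 1 was higher and 1 lower (2.33% of the 86, near the 1.49% of all genes). Gpnmb, a glycoprotein of phagosomes and lysosomes and a known TFEB and MITF target, averaged 4505 CPM in 4OHT and 2112 CPM in ctrl, with a log2 fold change of 1.02 ± 0.18 (SE, n = 3 against 3, adjusted p = 0.0158, edgeR). It was also higher than in 4OHT+Fer1, by 0.93 ± 0.17 (adjusted p = 0.0279, edgeR). Gpnmb was the only one of the 86 called there (1.16%, near the 1.35% of all genes). Arsb, the arylsulfatase that degrades dermatan sulfate, averaged 8.92 CPM in 4OHT and 18.3 CPM in ctrl, with a log2 fold change of -1.10 ± 0.24 (adjusted p = 0.0450, edgeR).

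None of the 12 further V-ATPase subunits, the 6 sorting genes or the 14 tested nutrient-sensing genes was called in either comparison with 4OHT. At the shares of all genes called there (1.49% and 1.35%), lists this short would seldom hold a call. Between ctrl and medium, 10 of the 86 were called (11.6%, near the 10.9% of all genes). Among them, Arsb, Cst7, Dpp7, Hgsnat and Lamtor3 were higher and Acp2, Atp6v1b2, Gpnmb and Slc15a3 lower. Between 4OHT and medium, Hgsnat, Npc1 and Rragd were higher and none lower (3.49% of the 86, near the 4.26% of all genes). No gene of these lists was called between 4OHT+Fer1 and Fer1 or between Fer1 and ctrl, where 0.0233% and 0% of all genes were.

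Samples within a group differed by as much as the groups for several members. The SD of log2 CPM within groups had a median of 0.33 over the 40 genes, 0.36 over all genes tested and 0.26 over the 1771 genes above 100 CPM. Lgmn, the asparaginyl endopeptidase that matures cathepsins, had an SD of 1.10. It was at 178, 285 and 554 CPM in ctrl, 311, 238 and 148 CPM in Fer1, 299.7, 56.7 and 73.8 CPM in 4OHT+Fer1, 406, 413 and 55.2 CPM in 4OHT, and 284 and 200.5 CPM in medium. Both the highest and the lowest sample were replicate 3, of ctrl and of 4OHT. Grn ranged from 452 CPM in ctrl replicate 3 to 2012 CPM in 4OHT+Fer1 replicate 2. At the other end, Scarb2, Hexa and Mitf had SDs of 0.11, 0.11 and 0.12.

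**Figure D4:**
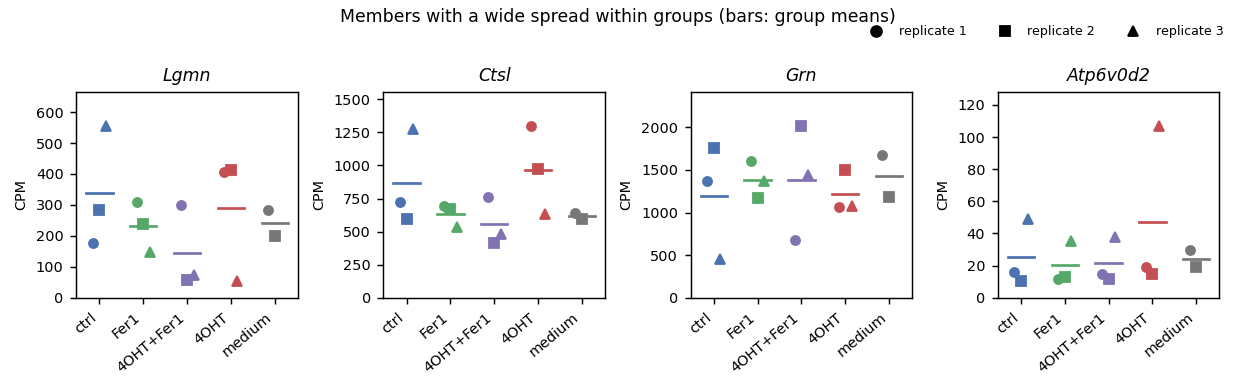
Level in CPM (axis from 0) of Lgmn, Ctsl, Grn and Atp6v0d2 in every sample, with shapes for the replicate number and bars for group means. Triangles (replicate 3) stand high in all 4 supernatants for Atp6v0d2, whereas for Lgmn they are highest in ctrl and lowest in 4OHT.

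Part of this spread went with the replicate number. In all 4 supernatants, replicate 3 was above replicates 1 and 2 for Atp6v0d2, Tfeb and Tfe3 (7.5%, against 9.16% of all genes) and below both for Ctsb, Tpp1, Gla, Glb1, Gusb, Neu1, Ppt1 and Atp6v1a (20%, against 7.61% of all genes). This pattern was looked for after the values were seen. With the replicate number removed, the SD of Atp6v0d2 went from 1.09 to 0.33 and that of Ctsb from 0.38 to 0.11, while that of Lgmn stayed at 1.10. Ppt1, Tpp1, Atp6v1a and Tfeb, all called between ctrl and medium, are in these lists, and medium had no replicate 3. Replicate 3 also held the highest mitochondrial share, and its part in these values was not tested.

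Another part went with base composition in single libraries. Across genes, the deviation of a library from its group mean had a rank correlation with GC content of the last 500 bases of the transcript of -0.50 in 4OHT+Fer1 replicate 1 and -0.41 in ctrl replicate 3, and of 0.44 in 4OHT+Fer1 replicate 2 and 0.42 in ctrl replicate 2. Over the 40 members these were -0.56, -0.41, 0.58 and 0.43, a description across genes that share a library. Deviations sum to 0 within a group, so the values of libraries in the same group are not separate. The 40 members ranged from 31.0% GC (Lipa) to 60.8% GC (Tfeb). Ctrl replicate 3 had the lowest value of all samples for Lamp1, Cd63, Ctsd, Ctsh, Ctsz, Grn, Gusb, Hexa, Smpd1, Naglu, Glb1 and Atp6ap1. With an offset for GC content in each library, the same 6 members were called between ctrl and medium and none between 4OHT and ctrl or 4OHT+Fer1.

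**Figure D5:**
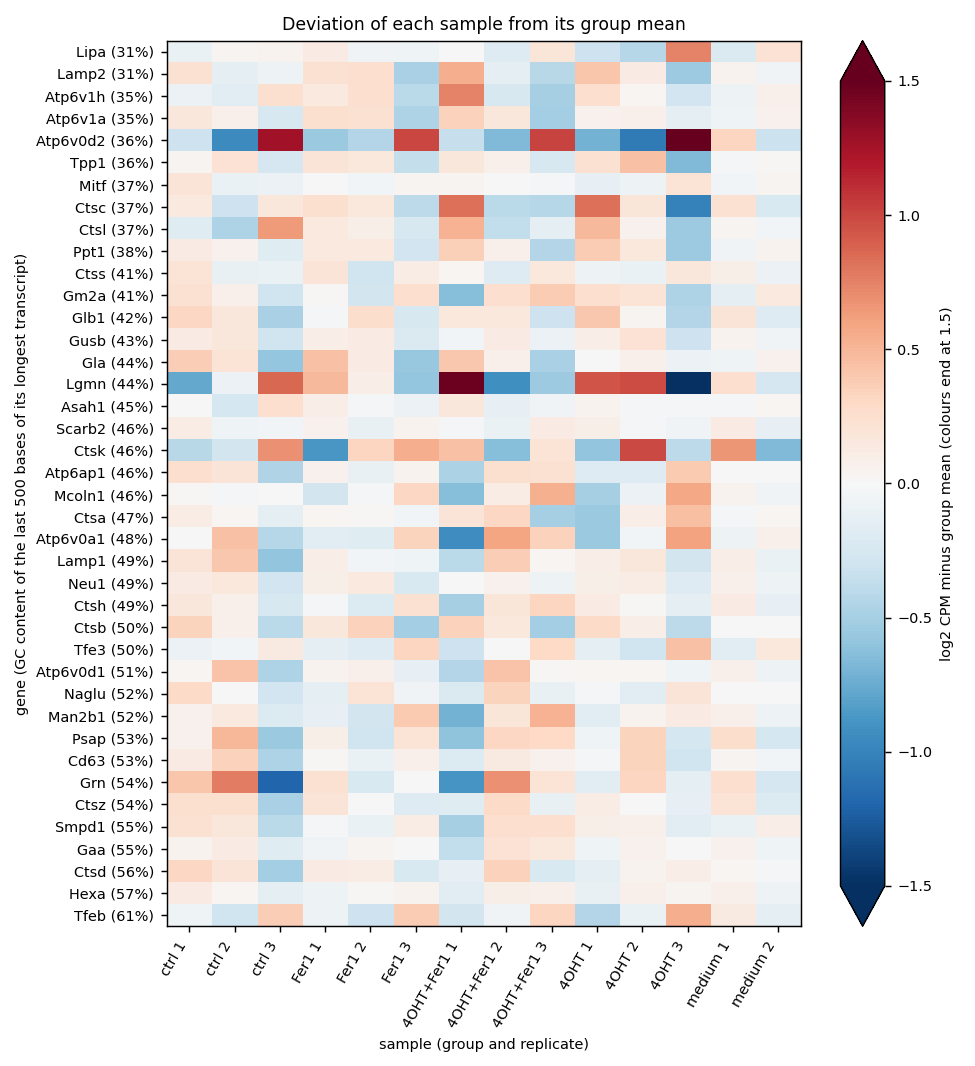
Deviation of each sample from its group mean (log2 CPM, red above and blue below) for the 40 genes, ordered from low to high GC content of the last 500 bases of the longest transcript. Ctrl replicate 3 and 4OHT+Fer1 replicate 1 turn blue for many genes in the lower, GC-rich part, and replicate 3 of the supernatants is red throughout for Atp6v0d2.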

How the data were processed

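Bone marrow-derived macrophages of 14 samples were sequenced with a 3′ end kit (Lexogen QuantSeq). According to the study's methods and the submitters' processing notes, reads were aligned with STAR 2.7.10a and quantified with Salmon 1.5.2 in an nf-core workflow. The deposited values are estimated counts per gene, which the authors made with Salmon and did not normalize. The methods name the human build GRCh38 and the notes list GRCh38 and GRCm38, whereas every identifier is from mouse. Whether counting used strand is not given in the sources used here, so exons overlapping on the opposite strand (Lamp1, Ctsa, Ctsb, Ctsl, Ctsz, Hexa, Ppt1, Grn, Atp6v1h) could share reads. A second deposited table holds the authors' own comparisons and 14 columns of CPM, which were not used.

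Counts were rounded to whole numbers, since the test had been planned for counts. Genes were kept with filterByExpr (minimum count 10), scaled by TMM and fitted in edgeR 4.0.16 (R 4.3.3, limma 3.58.1) with the quasi-likelihood test on all 14 samples, with group and replicate number as terms and Benjamini-Hochberg adjustment over 12851 genes. A member was called at an adjusted p of 0.05, two-sided, and counted again with an absolute log2 fold change above 1. The replicate number was taken as the mouse, which the study had in its own model. The labels do not state this pairing. Deviations from group means correlated at a median of 0.27 between samples of the same number (18 of 26 pairs above 0.1) and -0.11 between other samples. Deviations sum to 0 within a group, so the second value partly follows from the first. If replicates were not separate animals, the p-values measure technical spread only. No replicate pair differed by so little as to be 1 library.

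Log2 CPM used a prior count of 2. The value of 1 listed gene is not reported here. The 95% intervals are unadjusted. Libraries held 7823051 to 11052352 counts, and 3 counts were worth 0.272 to 0.381 CPM. Motifs were searched in RefSeq promoters, and gene positions and overlaps were read from GENCODE M21. Sample values were given for every member called in a comparison and for Tfeb, Tfe3 and Mitf, and of the other lysosomal genes those called against 4OHT were named. Values of Atp6v0d2, Ctsl, Lipa and Lgmn were added after they were seen. The scripts were tested on simulated data. Alternatives were DESeq2 1.42.0, relative log expression (RLE) size factors, no filter, no replicate block, only the groups compared, each replicate left out, and, added after seeing the data, an offset for GC content and leaving out single libraries. The members and lists were chosen with earlier results of these data known.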

Additional observations from a re-analysis of the deposited data

How the results depend on the processing

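No member of the 40 was called between 4OHT and ctrl under any of the 12 alternatives, nor between 4OHT+Fer1 and Fer1, between Fer1 and ctrl, or in the interaction. Some of these fits called few genes of any kind. Between 4OHT and ctrl, the fit of only these groups called 0 of 11857 genes and that without the replicate block 7 of 12851. The fits without replicate 1 and without replicate 2 also called next to no genes there. Between Fer1 and ctrl, DESeq2 called 3 of 12851. Such fits could hardly call a member, so their 0 adds little. Between 4OHT and 4OHT+Fer1, leaving out replicates gave 0 to 1 calls (Ctsl without replicate 3, and without ctrl replicate 3, 1 each). Between ctrl and medium, 6 calls became 1 without the replicate block and 11 in a fit of only the groups compared. They became 4 to 7 when replicate 3 or single libraries were left out. Over all genes, the calls were 1396 of 12851 in the main fit, 523 without the block and 2488 of 12124 in the fit of only these groups. Leaving out replicate 1 or 2 left a single medium sample, and those fits are described above. Between 4OHT and medium, 1 call became 6 with DESeq2, 0 without the replicate block and 7 in a fit of only the groups compared. It became 2 with the GC offset and the replicate block, and 1 to 3 when replicate 3 or single libraries were left out. Over all genes, the calls were 548 of 12851 in the main fit, 856 with DESeq2, 104 without the block and 1470 of 12149 in the fit of only these groups. The cause of these shifts was not tested, except that leaving out replicate 1 or 2 removes a medium sample. Of 84 alternative counts, 70 stayed within 1.5 times the reported count. A count of 0 that stayed 0 was scored as staying. This holds for every alternative of the comparisons that called no member in any fit, so the score says little about those that did. Of 84 alternative fold changes of called members, 59 kept their call, 25 lost it with the same direction, and 0 reversed. A lost call was not always a smaller change: between ctrl and medium without replicate 2, the log2 fold changes were 1.03 for Ppt1, 0.73 for Atp6v1a, -0.96 for Tfeb and -1.12 for Ctsh. With 3 samples a group, members with a wide spread (Lgmn, Ctsk, Grn) had intervals beyond 2-fold in some comparisons, so differences of that size were not detectable there.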
